A study of Mus musculus with 15 samples.

Results

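Nup50, Trp53rka and Alkbh4 are 3 genes whose probes read lower in the striatum of decoction-treated mice than in that of untreated mice with brain hemorrhage. They were picked for that lower level. They are 3 of the 45 genes with a tested, named probe on these arrays, 46 genes being named in all, and each has 1 probe, identified by a RefSeq transcript (A_51_P411297 with NM_016714 for Nup50, A_51_P468505 with NM_001007581 for Trp53rka, A_51_P209965 with NM_028070 for Alkbh4). The tissue was the striatum on the injured side, from male mice; its RNA was labelled with Cy3 and read on 15 one-colour Agilent arrays, 5 for each of 3 groups. Sham mice were gavaged with distilled water. ICH mice had an intracerebral hemorrhage, a bleeding into the brain tissue, and received the same water. BYHWD mice had the hemorrhage and were gavaged with Buyang Huanwu decoction, a herbal formula of Chinese medicine, at 6.19 g/kg once a day for 14 days. All tissue was taken on day 14, after perfusion with saline. The labels state no strain, age or method of inducing the hemorrhage, and do not say that each sample came from its own mouse, so that a p-value reflects only how far these samples scatter, which may be technical. The stated purpose of the study was an expression signature of the decoction in this injury.

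Nup50 encodes a mobile protein of the nuclear side of the nuclear pore. It binds importin alpha and helps imported cargo to be released in the nucleus, so that it is part of the general traffic of proteins between cytoplasm and nucleus. Trp53rka encodes a small kinase of the KEOPS complex, which places a threonylcarbamoyl group on certain tRNAs and thereby serves accurate translation, and the kinase was first described as one that phosphorylates the tumour suppressor p53. Mice carry a close copy, Trp53rkb, and how far the Trp53rka probe tells the copies apart was not tested. Alkbh4 encodes a dioxygenase of the AlkB family that uses iron and oxoglutarate. It is known for removing a methyl group from a lysine of actin, a step needed for actomyosin function and cell division. All 3 genes serve general cell functions and are not used as markers of 1 brain cell type.

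The sequences upstream of the genes are shown because the members were picked for a lower mean in the same group. They are RefSeq sequences of GRCm38.p6, 250 bases before to 30 bases after the annotated start on the gene's own strand, and all 3 members matched the table by symbol. Capitals mark matches to any of 4 motifs on either strand, chosen after the sequences had been seen: ATGGCGG (core of the YY1 site), CCGGAAG (ETS family), CCAAT and the GC box GGGCGG. The windows are chr15:84923178-84923457 (plus strand) for Nup50, chr2:165493285-165493564 (minus strand) for Trp53rka, chr2:166793517-166793796 (plus strand) for the copy Trp53rkb and chr5:136135895-136136174 (plus strand) for the first of 3 starts listed for Alkbh4.
Nup50: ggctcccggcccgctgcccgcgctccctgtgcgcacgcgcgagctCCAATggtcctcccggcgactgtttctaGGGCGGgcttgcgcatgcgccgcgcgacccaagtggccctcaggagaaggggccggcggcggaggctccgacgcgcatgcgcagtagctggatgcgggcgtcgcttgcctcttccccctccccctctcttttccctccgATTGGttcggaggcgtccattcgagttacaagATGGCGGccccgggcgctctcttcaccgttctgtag
Trp53rka: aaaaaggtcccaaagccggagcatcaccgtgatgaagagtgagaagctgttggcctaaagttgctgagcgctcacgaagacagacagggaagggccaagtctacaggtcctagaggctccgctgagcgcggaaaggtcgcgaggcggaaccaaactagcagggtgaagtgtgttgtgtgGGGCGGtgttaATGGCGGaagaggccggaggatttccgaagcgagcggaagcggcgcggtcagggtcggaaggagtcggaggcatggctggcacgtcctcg
Trp53rkb: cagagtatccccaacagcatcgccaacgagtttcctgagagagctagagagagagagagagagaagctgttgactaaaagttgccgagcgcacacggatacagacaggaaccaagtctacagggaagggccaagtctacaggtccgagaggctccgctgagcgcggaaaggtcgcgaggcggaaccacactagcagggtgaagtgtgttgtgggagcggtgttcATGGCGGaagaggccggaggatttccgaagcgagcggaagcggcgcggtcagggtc
Alkbh4: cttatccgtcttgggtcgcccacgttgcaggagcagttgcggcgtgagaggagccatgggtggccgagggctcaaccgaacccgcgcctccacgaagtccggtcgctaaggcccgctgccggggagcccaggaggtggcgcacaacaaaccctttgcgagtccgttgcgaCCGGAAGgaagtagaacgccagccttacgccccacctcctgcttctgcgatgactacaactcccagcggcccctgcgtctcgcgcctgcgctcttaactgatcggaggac
The Nup50 window held CCAAT at -205 from the start and on the opposite strand at -38, GGGCGG at -177 and ATGGCGG at -6. The Trp53rka window held GGGCGG at -71 and ATGGCGG at -60. The Alkbh4 window held CCGGAAG at -80 and no other of the 4 motifs. No motif was thus found in all 3 windows. Of the 32851 windows of this length in the table, 3.10% held ATGGCGG, 8.45% CCGGAAG, 36.1% CCAAT and 34.7% GGGCGG. The windows were rich in G and C, at 69.3% for Nup50, 60.0% for Trp53rka and 65.0% for Alkbh4, against a median of 52.5% over all windows. Trp53rka and its copy were identical at 220 of 262 aligned columns, 22 of which were gaps, and shared a run of 56 bases. These matches describe the letters only.

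The arrays fell into 3 sets by the scan identifiers in the file headers, and each set is called a slide here. An identifier names a scan, so whether different sets shared a slide is not known. The 5 sham arrays and ICH arrays 2 and 3 were on slide 1. The remaining 3 ICH arrays, numbers 1, 4 and 5, were on slide 2, and every BYHWD array was on slide 3. BYHWD and slide 3 cannot be told apart, and ICH can be compared with sham within slide 1. Spots well above background made up 81.4% to 86.2% of an array. The array's 75th percentile ran from 430 to 537 units in sham, from 419 to 451 in ICH on slide 1, from 261 to 303 in ICH on slide 2 and from 273 to 386 in BYHWD. The 3' minus 5' difference of the Gapdh control probes, a sign of RNA quality, was 0.01 to 0.41 log2 units in sham, 0.33 to 0.52 in ICH on slide 1, 0.61 to 0.79 in ICH on slide 2 and 0.32 to 0.60 in BYHWD. The same difference of the Pgk1 control probes was 7.36 to 7.69 in sham and 7.42 to 7.68 in ICH on slide 1. It was 7.58 to 7.85 in ICH on slide 2 and 7.77 to 7.93 in BYHWD, so that the 2 controls did not order the groups alike. On every array the Pgk1 difference was far larger than that of Gapdh, and whether it reads RNA quality was not tested. The part of RNA quality in the results below was not tested. None of the 9 marker genes listed for striatal neurons has a named probe, so that the tissue could not be checked on them.

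Levels are log2 signals minus the 75th percentile of the same array, so that a level of 0 is that percentile and a negative level lies below it. The Nup50 level was -0.31, -0.57, -0.24, -0.65 and -0.57 on sham arrays 1 to 5. It was -0.28, -0.37, -0.42, -0.15 and -0.23 on ICH arrays 1 to 5, and -0.73, -0.88, -0.83, -0.74 and -0.65 on BYHWD arrays 1 to 5. All 5 BYHWD arrays lay below all 5 ICH arrays, and 4 of them below all sham arrays, BYHWD 5 reaching the lowest sham value. Sham arrays 1 and 3 stood apart from the other sham arrays, inside the ICH range. Sham averaged -0.47 ± 0.18, ICH -0.29 ± 0.11 and BYHWD -0.76 ± 0.09 (SD, n = 5 each).

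For Trp53rka the level was -1.42, -1.56, -1.48, -1.53 and -1.65 on sham arrays 1 to 5. It was -1.33, -1.35, -1.48, -1.33 and -1.37 on the ICH arrays and -1.74, -1.83, -1.77, -1.41 and -1.87 on the BYHWD arrays, in the same order. On 4 BYHWD arrays the value was below every ICH and every sham array, while BYHWD 4 lay inside the ICH range and above all sham arrays. Sham averaged -1.53 ± 0.09, ICH -1.37 ± 0.06 and BYHWD -1.72 ± 0.18 (SD, n = 5 each), so that the BYHWD spread was the widest of the 3 groups for this gene.

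The Alkbh4 level was -1.40, -1.46, -1.07, -1.33 and -1.44 on sham arrays 1 to 5. It was -1.15, -1.35, -1.34, -1.20 and -1.21 on the ICH arrays and -1.52, -1.56, -1.49, -1.50 and -1.59 on the BYHWD arrays. All 5 BYHWD arrays lay below every sham and every ICH array. The highest value of the gene was that of sham 3, the array with the smallest Gapdh 3' to 5' difference. The next highest were those of ICH 1, 4 and 5, the arrays with the largest such differences (0.77, 0.61 and 0.79). The averages were -1.34 ± 0.16 for sham, -1.25 ± 0.09 for ICH and -1.53 ± 0.04 for BYHWD (SD, n = 5 each), and here the BYHWD spread was the narrowest.

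**Figure D1:**
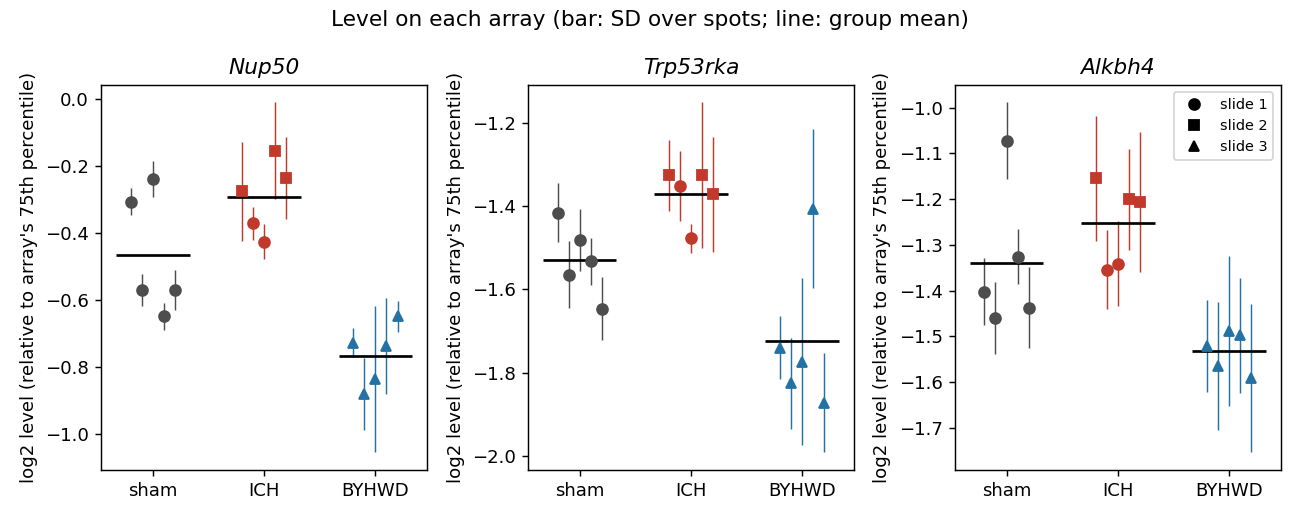
Log2 level of Nup50, Trp53rka and Alkbh4 on each of the 15 arrays, relative to the array's 75th percentile, by group (x axis), with the bar giving the SD over the probe's spots, the symbol the slide and the black line the group mean. BYHWD means are the lowest in each panel (-0.76, -1.72 and -1.53), and BYHWD 4 stands high for Trp53rka at -1.41.

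In each member the group means came in the order BYHWD, sham, ICH from low to high. Among all 51669 tested probes 17.3% had this order, and among the 45 named genes 12 did. ICH and sham arrays overlapped in every member, although for Trp53rka 4 ICH arrays lay above all sham arrays.

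The difference between BYHWD and ICH is the value the members were picked on and is given as a description, with no test. Nup50 stood at a log2 difference of -0.47 ± 0.10 (SE), or 0.720-fold, Trp53rka at -0.35 ± 0.10 or 0.783-fold, and Alkbh4 at -0.28 ± 0.09 or 0.823-fold (n = 5 arrays in each group). Normexp background correction was also run in place of the scanner software's, on median spot signals and with an offset of 50 units added. The Trp53rka difference was then -0.23 and the Alkbh4 difference -0.17, with the 75th percentile or quantile normalization alike. An added offset narrows log2 differences of low signals, and the parts of offset, signal measure and correction were not tested. The groups did not overlap for 2 of the 3 members, Nup50 and Alkbh4, while 3.71% of all tested probes had every BYHWD array below every ICH array. Of all tested probes 5.86% had a lower difference than Nup50, 12.2% a lower one than Trp53rka and 17.8% a lower one than Alkbh4. These shares set means of 10 spots beside probes that mostly have 1 spot, 60823 probes other than controls sharing an array of 62976 spots. How far spot number widens the spread of all probes was not tested. In bulk tissue a lower level can come from fewer cells of a type or from less RNA per cell. These cannot be told apart, nor can either be told from an effect of slide 3, which held every BYHWD array and no ICH array.

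The ICH arrays were then taken by slide. Against ICH 2 and ICH 3 on slide 1, BYHWD differed by -0.37 ± 0.13 (SE) in Nup50, -0.31 ± 0.13 in Trp53rka and -0.19 ± 0.11 in Alkbh4 on the log2 scale. Against the 3 ICH arrays of slide 2 it differed by -0.54 ± 0.11, -0.38 ± 0.11 and -0.35 ± 0.10. The direction was the same against both sets, and each difference was larger against slide 2. Between the ICH arrays of slide 2 and slide 1 themselves, Nup50 differed by 0.18 (95% interval -0.12 to 0.47, limma adjusted p = 0.398), Trp53rka by 0.07 (-0.22 to 0.37, limma adjusted p = 0.753) and Alkbh4 by 0.16 (-0.11 to 0.43, limma adjusted p = 0.393). None of the 3 passed there, at an adjusted or an unadjusted p under 0.05, whereas 21.9% of all tested probes passed the adjusted test.

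BYHWD was set against sham in the same fit. The 2 contrasts share the BYHWD arrays, and choosing genes low in BYHWD favours a low value here too. Nup50 differed by -0.30 (95% interval -0.52 to -0.08, limma adjusted p = 0.0578, lower than every sham array on 4 of 5), Trp53rka by -0.19 (-0.41 to 0.02, limma adjusted p = 0.187, lower on 4 of 5) and Alkbh4 by -0.19 (-0.39 to 0.01, limma adjusted p = 0.167, lower on 5 of 5). None of the 3 passed limma's adjusted test, where 17.3% of all tested probes did and 4.79% passed as lower. With this scaling, Nup50 alone of the 3 had an unadjusted limma p under 0.05, which was 0.0110. A 2-sided exact permutation test over the arrays gave p = 0.0159 for Nup50, 0.0794 for Trp53rka and 0.00794 for Alkbh4, the last being the smallest p that 5 against 5 arrays can give, not adjusted for the 6 such tests run. BYHWD lay wholly below sham for 1 of the 3 members, Alkbh4, against 4.68% of all tested probes. Without sham 4, Nup50 passed (-0.34, limma adjusted p = 0.0390), and it passed with each array's median subtracted in place of the 75th percentile (-0.37, limma adjusted p = 0.0229). The Trp53rka and Alkbh4 differences were -0.27 each with array medians (limma unadjusted p = 0.0261 and 0.0112, adjusted p = 0.0969 and 0.0575). They were -0.24 and -0.23 with quantile normalization (limma unadjusted p = 0.0366 and 0.0220, adjusted p = 0.127 and 0.0922). With normexp and its offset of 50 units, scaled by the 75th percentile, they were -0.04 each (limma adjusted p = 0.747 and 0.679). Without sham 1 and sham 3, a choice made after seeing the data, the Nup50 difference was -0.17 (limma adjusted p = 0.328). With the slide as a random block the differences were -0.35 ± 0.18 (SE), -0.22 ± 0.18 and -0.24 ± 0.16 (limma adjusted p = 0.631, 0.762 and 0.713).

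ICH was set against sham to see whether the members moved with the hemorrhage. These values share the ICH arrays with the contrast the members were picked on, which favours a high ICH level. Nup50 differed by 0.17 (95% interval -0.05 to 0.39, limma adjusted p = 0.278), Trp53rka by 0.16 (-0.05 to 0.37, limma adjusted p = 0.309) and Alkbh4 by 0.09 (-0.11 to 0.29, limma adjusted p = 0.569), with 5 arrays in each group. None of the 3 passed the limma test, at an adjusted or an unadjusted p under 0.05, where 4.95% of all tested probes passed the adjusted one. The 2-sided exact permutation test gave p = 0.0952, 0.0159 and 0.325 in the same order, again not adjusted. Without sham 3 the Nup50 difference was 0.23 (limma unadjusted p = 0.0400, adjusted p = 0.155), and without sham 1 and sham 3 it was 0.30 (limma unadjusted p = 0.0122, adjusted p = 0.124). With normexp and the 75th percentile that of Trp53rka was 0.19 (limma unadjusted p = 0.0337, adjusted p = 0.0737). Within slide 1 the 2 ICH arrays differed from sham by 0.07 in Nup50, 0.11 in Trp53rka and -0.01 in Alkbh4 (limma adjusted p = 0.994, 0.989 and 0.999), where 0.346% of all tested probes passed. The 3 ICH arrays of slide 2 differed from sham by 0.25, 0.19 and 0.15 (limma adjusted p = 0.0982, 0.206 and 0.252), where 36.3% of all tested probes passed.

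**Figure D2:**
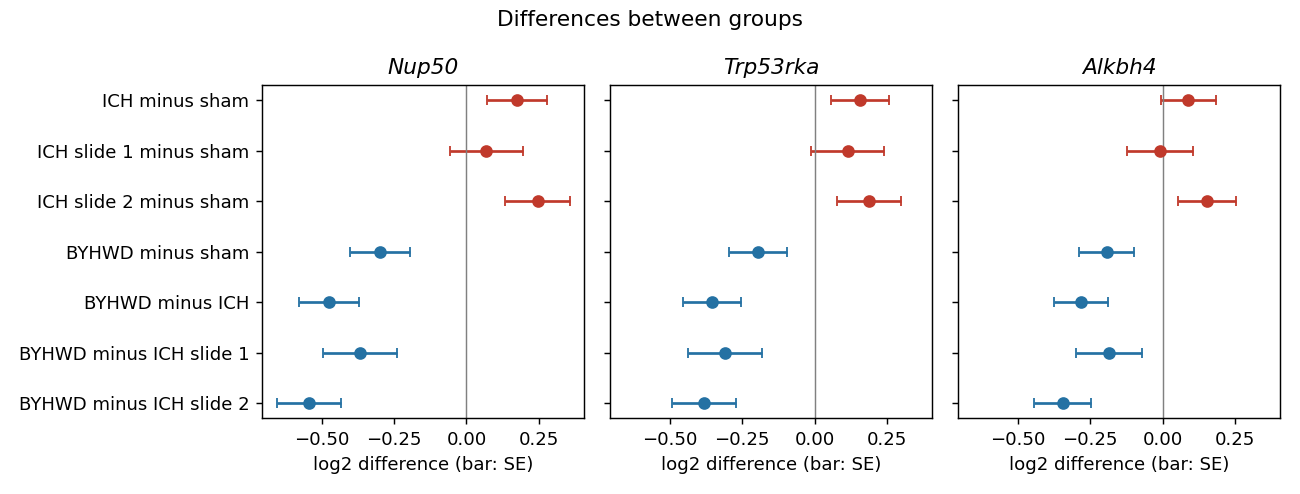
Log2 differences between groups for each member (points, with the SE as bars), with the ICH arrays also taken by slide. The 3 BYHWD minus ICH values are -0.47, -0.35 and -0.28, and the ICH minus sham values within slide 1 are 0.07, 0.11 and -0.01.

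Each member probe is printed 10 times on every array, at positions spread over it, which shows how finely a level was read. Of the 450 member spots, 11 had an outlier flag and were left out, and all 450 were well above background. The SD over the spots of an array ran from 0.04 to 0.06 log2 units for Nup50 on slide 1, from 0.12 to 0.15 on slide 2 and from 0.04 to 0.22 on slide 3. For Trp53rka it ran from 0.03 to 0.08, 0.09 to 0.17 and 0.08 to 0.20 on the 3 slides, and for Alkbh4 from 0.06 to 0.09, 0.11 to 0.15 and 0.10 to 0.16. Spots of 1 probe thus spread more widely on most arrays of slides 2 and 3 than on slide 1.

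The lower BYHWD reading was seen at every printed position. Taken position by position over the arrays, BYHWD minus ICH ran from -0.68 to -0.42 for Nup50, with a median of -0.45. It ran from -0.45 to -0.24 for Trp53rka, with a median of -0.35, and from -0.39 to -0.13 for Alkbh4, with a median of -0.27. All 10 positions were below 0 for each member. The members were picked on the difference over these same spots. Spots of 1 array also share its RNA and labelling, so that the positions describe the reading and add no replicates.

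**Figure D3:**
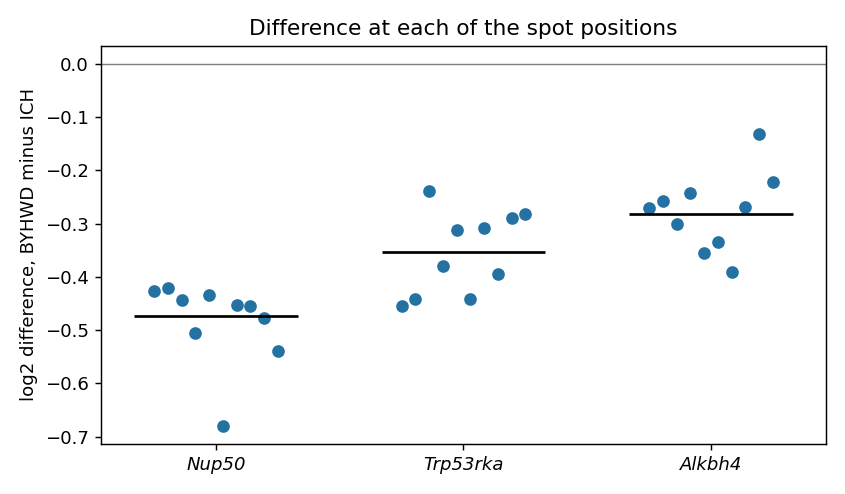
Log2 difference BYHWD minus ICH at each of the 10 printed positions of each member probe (points), with the difference of the array means as a line. Nup50 positions lie between -0.68 and -0.42, Trp53rka positions between -0.45 and -0.24 and Alkbh4 positions between -0.39 and -0.13.

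The signals before scaling show how the levels arise. The mean Nup50 signal was 308 to 431 units on the sham arrays, 312 to 349 on the ICH arrays of slide 1, 222.8 to 273 on those of slide 2 and 155 to 236.7 on the BYHWD arrays. For Trp53rka the signal was 150 to 186 units in sham, 151 to 177 and 101 to 122 in ICH on slides 1 and 2, and 80.7 to 116 in BYHWD. For Alkbh4 it was 163 to 242 in sham, 166 to 177 and 114 to 132 in ICH, and 98.0 to 135 in BYHWD. Unscaled, the BYHWD arrays thus overlapped the ICH arrays of slide 2 in every member, and were below all sham arrays in every member.

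Over the 15 arrays, the named genes most like Nup50 in their levels were Alkbh4 (Pearson r = 0.84, Spearman rho = 0.82), Trp53rka (r = 0.79, rho = 0.74) and Rab5a, a small GTPase of early endosomes (r = 0.75, rho = 0.79). Those most like Trp53rka were Nup50, Alkbh4 (r = 0.74, rho = 0.74) and Gamt, an enzyme of creatine synthesis (r = 0.63, rho = 0.60). Those most like Alkbh4 were Nup50, Rab5a (r = 0.79, rho = 0.68) and Uhrf1bp1l (r = 0.79, rho = 0.71). These values are a description: the members were picked for 1 shared contrast, and the arrays share slide, scaling and RNA. With each group's mean removed, r over the 15 arrays was 0.56 between Nup50 and Alkbh4, 0.36 between Nup50 and Trp53rka and 0.35 between Trp53rka and Alkbh4. Other named genes then stood closer than the members did to each other. The highest such r was 0.73 with Taf1a for Nup50, 0.65 with Dnajc11 for Trp53rka and 0.81 with Lhfp for Alkbh4. Of 44 other named genes, Alkbh4 came in place 5 and Trp53rka in place 17 for Nup50, Nup50 in place 8 and Alkbh4 in place 10 for Trp53rka, and Nup50 in place 10 and Trp53rka in place 17 for Alkbh4. Taf1a, Dnajc11 and Lhfp are named here after their values had been seen.

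**Figure D4:**
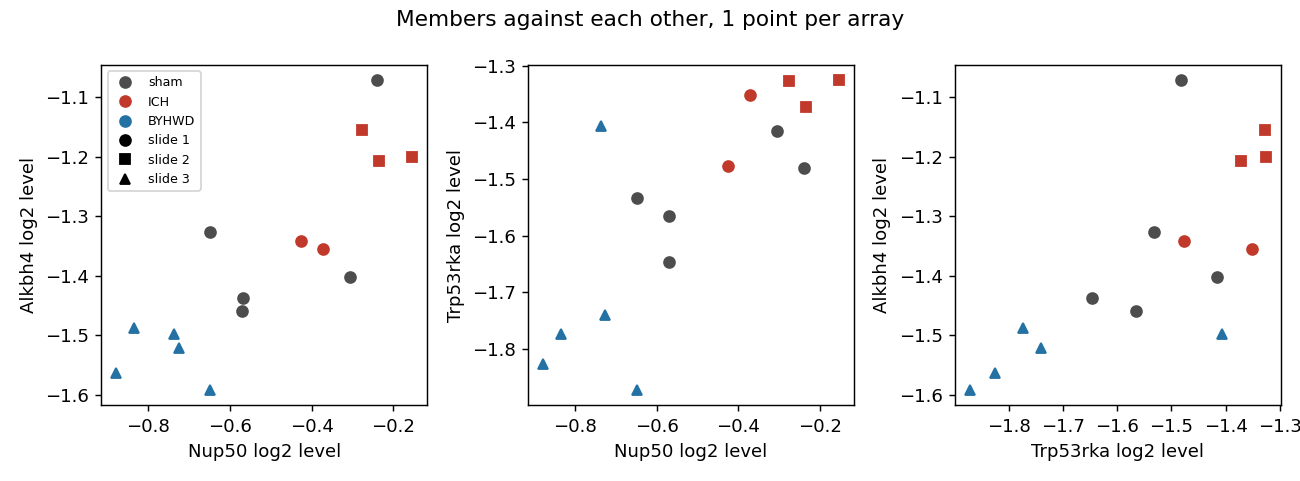
Levels of the members plotted against each other, 1 point per array, coloured by group and shaped by slide, on log2 axes relative to the array's 75th percentile. BYHWD arrays lie at the low end for Nup50 and Alkbh4 (r = 0.84 over the 15 arrays), and BYHWD 4 leaves the other BYHWD arrays on the Trp53rka axis at -1.41.

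Of the 45 named genes, 34 had a lower mean in BYHWD than in ICH, as did 49.9% of all tested probes, with a median log2 difference of -0.15 against 0.00 over all tested probes. By that difference the members held places 3, 7 and 9 from the lowest. Next to Nup50 stood H2-Q7, a class I histocompatibility gene (-0.61), and Carhsp1, an RNA-binding protein gene (-0.40). Next to Trp53rka stood Atg3, an enzyme of autophagy (-0.36), and Rab5a (-0.31), and next to Alkbh4 stood Rab5a and the cell cycle factor E2f1 (-0.28). No overlap between BYHWD and ICH arrays, with BYHWD lower, was seen in 3 of the 45, Nup50, Alkbh4 and Gamt (-0.25). Among these genes H2-Q7 differed between ICH and sham by 1.82 (limma adjusted p = 0.00436), whereas the members did not pass there.

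**Figure D5:**
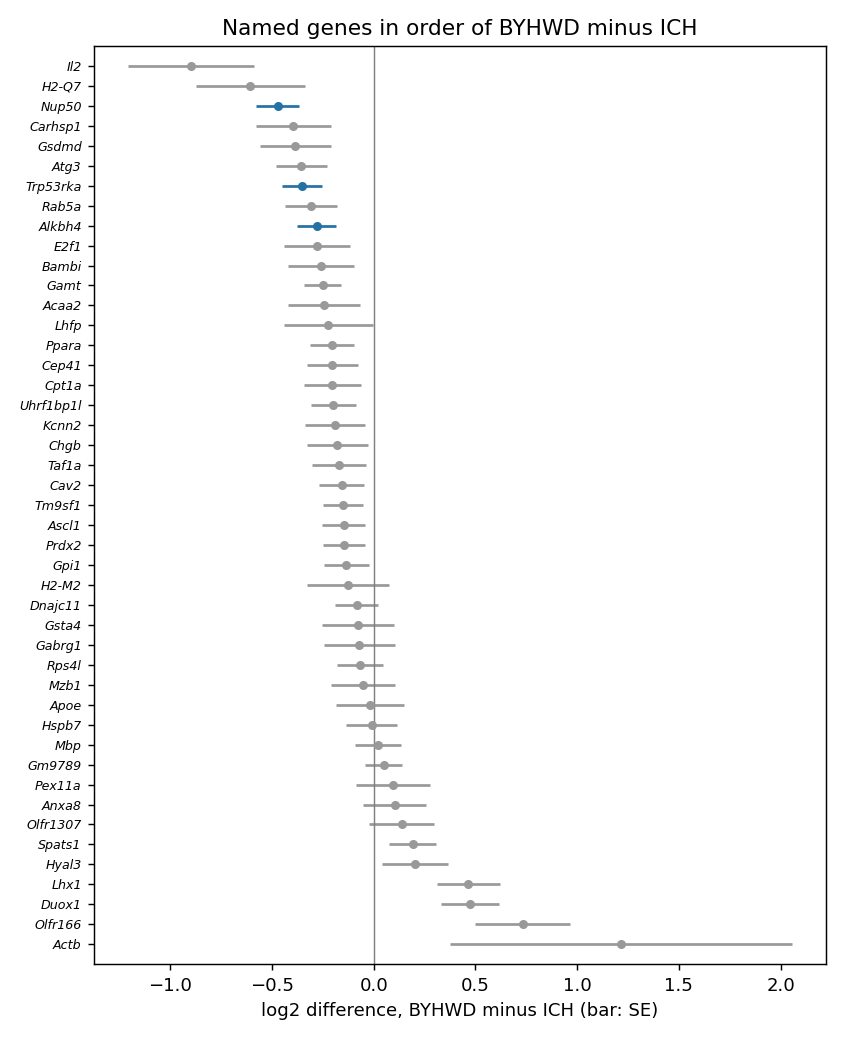
Log2 difference BYHWD minus ICH for the 45 named genes in order (points, SE as bars), with the 3 members in blue. Nup50, Trp53rka and Alkbh4 stand at places 3, 7 and 9, at -0.47, -0.35 and -0.28.

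The pathways of the members could not be followed further on these arrays. Of 40 genes listed for the nuclear pore and nuclear transport, 12 for the KEOPS complex, its tRNA modification and p53, and 9 for the AlkB dioxygenases, 1 each has a tested, named probe, the member itself. Of the cell type markers, 4 have one. Apoe was placed in the list for microglia and macrophages (1 of 7 genes). Whether its level reads those cells or others, such as astrocytes, was not tested. Mean Apoe levels were 7.49 (sham), 8.43 (ICH) and 8.41 (BYHWD). Mbp, of oligodendrocytes (1 of 4), stood at 8.08, 8.27 and 8.29, Mzb1, of B and plasma cells (1 of 3), at -3.58, -2.89 and -2.94, and Il2, of T cells (1 of 3), at -4.91, -3.75 and -4.65. BYHWD minus ICH was -0.02 for Apoe, 0.02 for Mbp and -0.05 for Mzb1, each smaller in size than the -0.28 of Alkbh4, while Il2 stood at -0.90. The Il2 levels were far below those of the members, and its ICH arrays ran widely, from -4.86 to -2.96 (SD 0.91). The part of these cell types in the members' levels was not tested.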

How the data were processed

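The deposited scanner files hold spot intensity, written per the file headers by version 11.0.1.1 of Agilent's Feature Extraction and corrected for background within each array by that software and not scaled between arrays. The authors' deposited log2 table lists 34099 probes, none of them a member probe, so it was not used, and no source used here says how it was made. Flagged outlier spots were left out, log2 signals of 1 probe averaged, and the 75th percentile over spots other than controls subtracted. Spike-in, custom and negative probes (132) and those without a value on some array (171) were dropped, and 51669 probes well above background on at least 5 of 15 arrays were fitted with limma 3.58.1 (lmFit, eBayes; 2-sided, Benjamini-Hochberg over all tested probes, threshold 0.05), which was tested on simulated data. Groups and replicate numbers came from the titles. Gene symbols came from accessions matched to the RefSeq table of GRCm38.p6. Genes beside the members were named by likeness over the 15 arrays (the 3 highest r), by neighbouring place in the BYHWD minus ICH order, or as members of the lists. The members and lists were chosen with earlier results of these data known. Alternatives covered scaling, background correction, filters, variance model, slide and replicate blocks and left-out arrays. The background correction was normexp with an offset of 50 units, planned on the mean signal and run on the median signal, the column at hand. Beside the 4 promoter motifs shown, the NRF1 site was searched for. It matched in the Nup50 window and not in those of Trp53rka, Trp53rkb and Alkbh4. The search was dropped afterwards for a reason of form, and not for its result. The share of all windows with the site is not given here.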

Additional observations from a re-analysis of the deposited data

Results flagged for a closer look

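The Trp53rka level on BYHWD 4 was -1.41, while the other 4 BYHWD arrays lay between -1.87 and -1.74. The gap to its neighbour was 0.717 of the group's range. It was the 1 set of values, of 9 checked in groups of 5, with an array this far from the others, where chance flags about 1 in 20. Without BYHWD 4, the log2 difference between BYHWD and ICH was -0.43 in Trp53rka.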

How the results depend on the processing

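Of 294 values over 12 results under alternatives, 274 kept their direction and their side of the threshold, or moved by less than 1 SD. BYHWD minus ICH stayed below 0 in all 30 alternatives for each member. The members were picked on this difference, so its sign here is a description and no support. Filters, variance model, replicate block, fits of only the groups compared and left-out sham arrays could not change it. Those unchanged values are also among the 274. It moved by more than 1 SD with normexp and the 75th percentile (-0.37 in Nup50, -0.23 in Trp53rka, -0.17 in Alkbh4), with normexp and quantiles (-0.17 in Alkbh4), and with only the ICH arrays of slide 1, whether or not those of slide 2 stayed in the fit (-0.37 in Nup50, -0.19 in Alkbh4). For BYHWD against sham, Nup50 passed with array medians subtracted (-0.37), normexp and quantiles (-0.23), eBayes with trend and robust (-0.30), and without the ICH arrays of slide 2 (-0.30), at an adjusted p. The exact test has only unadjusted p-values, a looser threshold: under 0.05 were Nup50 (-0.30), which had an unadjusted limma p under 0.05 too, and Alkbh4 (-0.19) for BYHWD against sham, and Trp53rka (0.16) for ICH against sham. For ICH against sham, Alkbh4 turned to -0.0081 with the slide as a fixed block, on slide 1 only and without the ICH arrays of slide 2. Between slides within ICH, Trp53rka turned to -0.028 with array medians subtracted. The causes were not tested. Leaving out single arrays gave, for Nup50, Trp53rka and Alkbh4, -0.51 to -0.44, -0.43 to -0.32 and -0.31 to -0.26 for BYHWD minus ICH, -0.34 to -0.24, -0.27 to -0.16 and -0.22 to -0.13 for BYHWD minus sham, 0.13 to 0.23, 0.13 to 0.19 and 0.06 to 0.15 for ICH minus sham, and 0.14 to 0.20, 0.01 to 0.14 and 0.14 to 0.17 between slides. With the slide as a random block BYHWD minus ICH was -0.46 ± 0.17 (SE), -0.35 ± 0.17 and -0.27 ± 0.16. The replicate numbers did not pair the samples (r of same-numbered deviations -0.34 to 0.09, none of 15 over 0.1), and with the replicate number as a block Nup50 stood at an adjusted p of 0.115 against sham for BYHWD, with no call changed. The deposited table could not be run as an alternative, since it lists none of the 3 probes. The 5 arrays per group limit what could be detected.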
